A study of Mus musculus with 4 samples.

Results

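The T helper lineage regulators are the transcription factors that direct a CD4+ T cell towards one helper fate or another, and 9 of them were followed here: Tbx21, Gata3, Rora, Bcl6, Maf, Prdm1, Eomes, Zbtb7b and Ahr. They were taken by name, as every probe whose gene name is one of these 9, which gave 16 of the 56605 probes and 9 of the 27192 named genes of the array. The data are 4 Agilent arrays of mouse transcripts read in a single colour, from naive CD4+ T cells and from iTreg cultures made of them, each as WT and as Nr4a-TKO, with 1 array per condition. All cells were sorted as Ly5.2+ CD4+ CD44low Foxp3- cells of naive surface phenotype from irradiated Rag2-/- mice 6 weeks after bone marrow transfer. Nr4a-TKO cells carry floxed Nr4a1, floxed Nr4a2 and Nr4a3-/- alleles on C57BL/6J and, as the study describes the sort, a knock-in of hCD2 and hCD52 at Foxp3, which is not given for the WT donors there, from stock mice 6 to 8 weeks old, and the Cre that removes the floxed parts is not given in the sources used here. They came from hosts given WT (Ly5.1) and Nr4a-TKO marrow together, whereas WT cells came from hosts given WT marrow alone, so that genotype and kind of host cannot be told apart. Whether cells of several hosts were pooled is not given in the sources used here. For iTreg at 3 h, the naive cells were cultured for 3 h on plate-bound anti-CD3 at 2 µg/ml with anti-CD28 at 0.5 µg/ml, anti-IFN-γ and anti-IL-4 at 1 µg/ml each, IL-2 at 10 ng/ml and TGF-β1, for which 0.2 and 0.5 ng/ml are both named. The comparisons ask how each regulator changed in the first hours of iTreg culture, and whether it differed without the Nr4a factors.

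Helper fates are set by a small number of DNA-binding proteins that favour their own programme and hold back the others. T-bet, encoded by Tbx21, drives Th1 cells and IFN-γ, and Eomes is its relative in cytotoxic and memory lymphocytes. Gata3 is needed for Th2 cells and, earlier, for CD4+ T cells as such, while Zbtb7b encodes ThPOK, which commits thymocytes to the CD4 lineage and keeps CD8 genes off. RORα, from Rora, is a nuclear receptor that acts in Th17 cells and is also used by innate lymphoid cells and tissue Treg cells. Ahr is a ligand-activated factor of cells that make IL-22, and c-Maf, from Maf, acts on Il4, Il10 and Il21. Bcl6, the repressor that makes Tfh cells, and Blimp-1, encoded by Prdm1, repress each other.

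Each value rests on probes of 60 bases. The first 30 bases of the probes that carry the results below are given, from the array files, with the mm9 position of the whole probe.
Rora, brighter probe, NM_013646, chr9:69227536-69227595, plus strand: cacaagtttagctgagaaggcttggaaggt
Rora, dimmer probe, NM_013646, chr9:69226774-69226833, plus strand: gcgcccgagcacttctagaacatctggagt
Maf, NM_001025577, chr8:118227736-118227795, minus strand: tgggtatgtgtagttcttgctataccatgg
Zbtb7b, NM_009565, chr3:89183230-89183289, minus strand: aggttttggggcacaagctctctagattgg
Bcl6, NM_009744, chr16:23965160-23965219, minus strand: cagggtttggctgtgtctaaactgcattag
Gata3, NM_008091, chr2:9779495-9779554, minus strand: tgtccaaatgggcacactgtcagttttgtt
Eomes, NM_010136, chr9:118394425-118394484, plus strand: gctatgaagaacgagtgcccggtgctatta
Both Rora probes lie on the same transcript and do not overlap, so that they are separate readings of 1 RNA. The remaining Rora probe, designed on another transcript at chr9:68511835-68511894, was not well above background on any array.

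The 250 bases before the transcription start are shown for Bcl6 and Gata3, the members that moved past 2-fold in the same direction in both genotypes, and for Rora and Zbtb7b, which were chosen after their values were seen because they differed most between the genotypes. They are RefSeq promoter windows of GRCm38.p6, and 7 of the 9 members have 1 or more. Capitals mark matches, on either strand, to the Nr4a monomer site (AAAGGTCA), Ets (AGGAAG), AP-1 (TGANTCA) and NFAT (TGGAAA).
Bcl6 first window, chr16:23988853-23989102, minus strand: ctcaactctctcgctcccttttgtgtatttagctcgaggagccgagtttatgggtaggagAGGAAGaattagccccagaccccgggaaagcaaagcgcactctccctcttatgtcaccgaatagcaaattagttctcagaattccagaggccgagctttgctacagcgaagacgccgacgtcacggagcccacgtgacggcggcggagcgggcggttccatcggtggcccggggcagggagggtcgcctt
Bcl6 second window, chr16:23981284-23981533, minus strand: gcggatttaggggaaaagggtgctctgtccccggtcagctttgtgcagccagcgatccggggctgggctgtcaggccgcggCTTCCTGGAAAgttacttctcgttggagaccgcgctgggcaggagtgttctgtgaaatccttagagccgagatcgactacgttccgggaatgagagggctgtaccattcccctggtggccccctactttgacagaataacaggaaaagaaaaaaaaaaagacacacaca
Gata3, chr2:9878601-9878850, minus strand: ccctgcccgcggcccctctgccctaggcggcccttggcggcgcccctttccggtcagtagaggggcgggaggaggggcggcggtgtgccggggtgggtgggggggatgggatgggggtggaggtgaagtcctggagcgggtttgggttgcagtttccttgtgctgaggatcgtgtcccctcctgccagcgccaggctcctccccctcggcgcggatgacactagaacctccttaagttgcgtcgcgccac
Rora, chr9:68653536-68653785, plus strand: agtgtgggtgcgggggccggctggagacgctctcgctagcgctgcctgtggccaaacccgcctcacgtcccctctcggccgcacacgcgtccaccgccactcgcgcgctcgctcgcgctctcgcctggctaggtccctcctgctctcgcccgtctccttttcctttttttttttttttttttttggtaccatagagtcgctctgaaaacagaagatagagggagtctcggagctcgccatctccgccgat
Zbtb7b first window, chr3:89393379-89393628, minus strand: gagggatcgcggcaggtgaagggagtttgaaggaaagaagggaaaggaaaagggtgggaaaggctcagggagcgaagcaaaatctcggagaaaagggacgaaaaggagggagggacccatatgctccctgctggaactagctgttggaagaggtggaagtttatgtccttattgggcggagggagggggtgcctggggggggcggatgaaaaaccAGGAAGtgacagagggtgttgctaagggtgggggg
Zbtb7b second window, chr3:89387672-89387921, minus strand: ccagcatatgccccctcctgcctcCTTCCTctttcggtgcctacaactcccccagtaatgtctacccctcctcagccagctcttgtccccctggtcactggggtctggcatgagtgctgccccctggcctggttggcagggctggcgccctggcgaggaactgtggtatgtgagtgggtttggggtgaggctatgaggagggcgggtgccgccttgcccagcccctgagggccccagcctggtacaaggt
Matches were few. The Gata3 and Rora windows held none of the 4 motifs, both Zbtb7b windows held an Ets match, and Bcl6 held an Ets match in each window and an NFAT match in the second, which shares a base with the Ets match. Of the members not shown, Tbx21 held an Ets match 243 bases before the start. Prdm1 held an Ets match 155 bases and an AP-1 match 48 bases before it, and Eomes held none. No member window held the Nr4a monomer site, which is present in 1.34% of all 32851 windows of this length. Ets letters are common, in 29.5% of all windows, while 18.6% held the NFAT letters and 6.75% the AP-1 letters. A match is a run of letters and not a bound site, and its absence speaks of these windows alone.

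Of the 16 probes, 11 were well above background on all 4 arrays, 2 on 3 arrays, 1 on 1 array and 2 on none. Each of the 9 genes had at least 1 probe well above background on all 4 arrays, and the probe with the highest mean stands for the gene. Levels are log2 intensities after background correction and quantile normalization, and levels of different probes are not compared with each other. No condition has a replicate, so no test can be made between conditions. The only repeat measurement is that of probes printed in several spots of an array. Among these, the SD of a log2 difference was between 0.15 and 0.21 for levels of 5 or more and between 0.34 and 0.41 for levels under 5, and it holds no variation between mice or cultures. A difference past 2-fold, 1 on the log2 scale, is called here. The arrays were alike in quality: 64.9% to 67.6% of probes were well above background, no spot was saturated, and all 4 lay on 1 slide read in 1 scan.

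Among the targeted genes, 6 probes measured Nr4a1, Nr4a2 and Nr4a3. At 3 h, the array with the Nr4a-TKO label exceeded the WT one by 0.48 at the Nr4a1 probe, the Nr4a2 probes were 1.38 and 1.37 higher, and the Nr4a3 probes differed by 0.19, -1.47 and -1.86 (all log2). In naive T the Nr4a1 probe was 1.34 higher on the Nr4a-TKO array. Where these probes lie against the deleted exons was not settled, so they do not check the labels, and genotypes are given as labelled. Markers of CD4+ T cells were all well above background on every array, and the naive marker S1pr1 was lower by 4.08 at 3 h in WT. All 9 activation markers, which include the targeted Nr4a1, Nr4a2 and Nr4a3, were past 2-fold higher at 3 h in both genotypes. Of all genes, 8.57% were so in WT and 8.01% in Nr4a-TKO. Between the genotypes at 3 h, 2 of the 9 were past 2-fold higher in Nr4a-TKO, Nr4a2 and Il2 (1.199). Tnfrsf9 was the 1 past 2-fold lower (-3.602). In naive T 2 were higher and 1 was lower in Nr4a-TKO, again Tnfrsf9 (-1.86). Whether the genotypes were equally activated was not tested. All 8 B cell markers were also well above background on every array, although the sort took CD4+ cells. Their summed intensity was 1486 on WT naive T, 2180 on Nr4a-TKO naive T, 1138 on WT iTreg 3 h and 2097 on Nr4a-TKO iTreg 3 h. The B cell signal was thus higher on both Nr4a-TKO arrays, and its part in the values below was not tested.

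**Figure D1:**
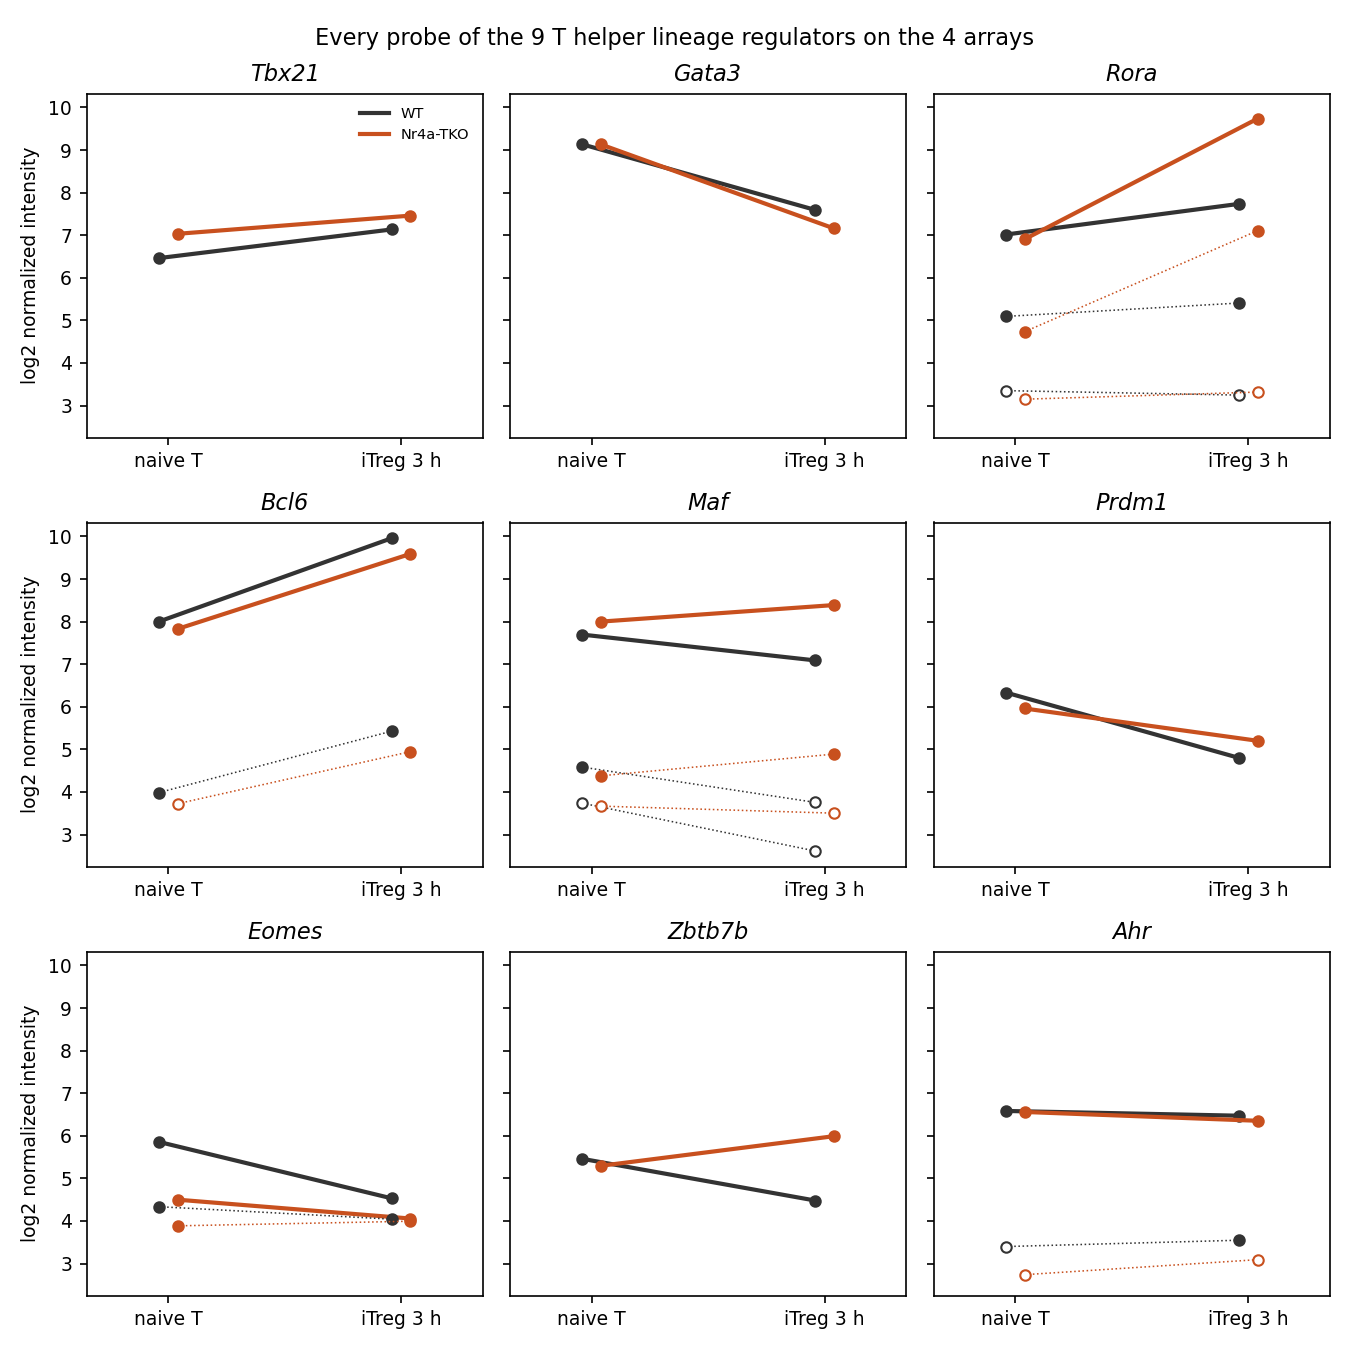
Log2 normalized intensity (vertical axis) of every probe of the 9 regulators in naive T and iTreg 3 h (horizontal axis), 1 array per point. Thick lines are the probe that stands for the gene and dotted lines its other probes, black for WT and orange for Nr4a-TKO, and open circles are values not well above background. The Rora, Maf and Zbtb7b lines part at 3 h, where Nr4a-TKO reads 9.74, 8.39 and 5.99 against 7.74, 7.09 and 4.48 in WT.

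In WT cells, 3 h of iTreg culture raised Bcl6 and lowered Gata3, Prdm1 and Eomes past 2-fold, so that 4 of the 9 regulators were past the threshold, where 17.6% of all 19606 genes measured were. By direction, 1 of 9 was higher and 3 of 9 were lower, beside 8.57% and 9.01% of all genes. The median difference of the 9 genes was -0.61, against -0.055 over all genes. The other 5, Tbx21, Rora, Maf, Zbtb7b and Ahr, stayed within 2-fold. Among them Zbtb7b changed by -0.98, and with 75th percentile scaling, which sets each array to its own 75th percentile in place of quantile normalization (-1.57), and in the deposited values (-1.55) it was past 2-fold lower. In a bulk sample, less RNA per cell and fewer cells that express a gene cannot be told apart.

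Bcl6 read 8.0 and 7.83 in naive T of WT and Nr4a-TKO, and 9.96 and 9.59 in their iTreg cells at 3 h. Both cultured arrays were far above both naive arrays, by 3.89-fold in WT and 3.39-fold in Nr4a-TKO, while the genotypes lay 0.17 apart in naive T and 0.37 apart at 3 h, with Nr4a-TKO the lower each time. In WT, 4.40% of all genes had a difference of greater size. A second Bcl6 probe, on another transcript, read 3.98, 3.72, 5.43 and 4.95 in the same order of arrays and moved the same way, 2.72-fold higher in WT and at least 2.34-fold higher in Nr4a-TKO, where the naive array was not well above background. The Bcl6 rise was present on both of its probes and in both genotypes.

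Gata3 went the opposite way. Its level was 9.13 in naive T of either genotype, 7.59 in WT iTreg 3 h and 7.16 in Nr4a-TKO iTreg 3 h. The naive arrays differed by 0.0029, less than the spread of repeated spots. At 3 h Gata3 was 2.91-fold lower than in naive T in WT and 3.92-fold lower in Nr4a-TKO, and the cultured arrays lay 0.43 apart, with Nr4a-TKO the lower. Gata3 has only this probe.

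Prdm1, which encodes the antagonist of Bcl6, read 6.33 and 5.96 in WT and Nr4a-TKO naive T, and 4.80 and 5.20 in WT and Nr4a-TKO iTreg 3 h. It was 2.90-fold lower at 3 h in WT and 1.69-fold lower in Nr4a-TKO, so that both cultured arrays were below both naive arrays but only the WT change passed the threshold. The changes differed by 0.78, and 6.51% of all genes had a greater difference between their changes. With an offset of 50 added to the corrected intensities, which shrinks differences between low values, the WT change of Prdm1 was -0.75 and no longer past 2-fold. With 75th percentile scaling its Nr4a-TKO change was -1.0 and just past 2-fold as well.

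Tbx21 and Ahr changed little. Tbx21 read 6.46 and 7.03 in WT and Nr4a-TKO naive T and 7.14 and 7.46 in the iTreg 3 h arrays, 1.60-fold higher over the culture in WT and 1.34-fold in Nr4a-TKO. Its Nr4a-TKO naive level and its WT 3 h level lay within the spread of repeated spots. The Ahr probe read 6.58, 6.56, 6.47 and 6.35, a range of 0.23, and the other Ahr probe, on NM_013464, was well above background on the array of WT iTreg 3 h alone. Of 5 measured genes of the Ahr pathway none was past 2-fold between the genotypes at 3 h, where 3.69% of all genes were. In naive T 1 of 5, Nqo1, was at least 1.15 lower in Nr4a-TKO, beside 1.63% of all genes. Over the culture Ptges3 was 1.20 higher in WT, 1 of 5 beside 8.57%. In Nr4a-TKO 2 of 5 were higher, Ptges3 by 1.22 and Nqo1 by at least 1.96, beside 8.01%. A list of 5 genes is too short to read against these shares. The classical Ahr target Cyp1a1 was not well above background on any array.

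In Nr4a-TKO cells, 3 of the 9 regulators passed 2-fold over the culture, where 16.4% of 20010 genes did: Bcl6 and Rora were higher and Gata3 lower. For the higher direction that is 2 of 9 beside 8.01% of all genes, and for the lower 1 of 9 beside 8.43%. Their median difference was 0.39, against -0.022 over all genes. The comparison shares no array with that of WT, and Bcl6 and Gata3 were past the threshold in the same direction in both.

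**Figure D2:**
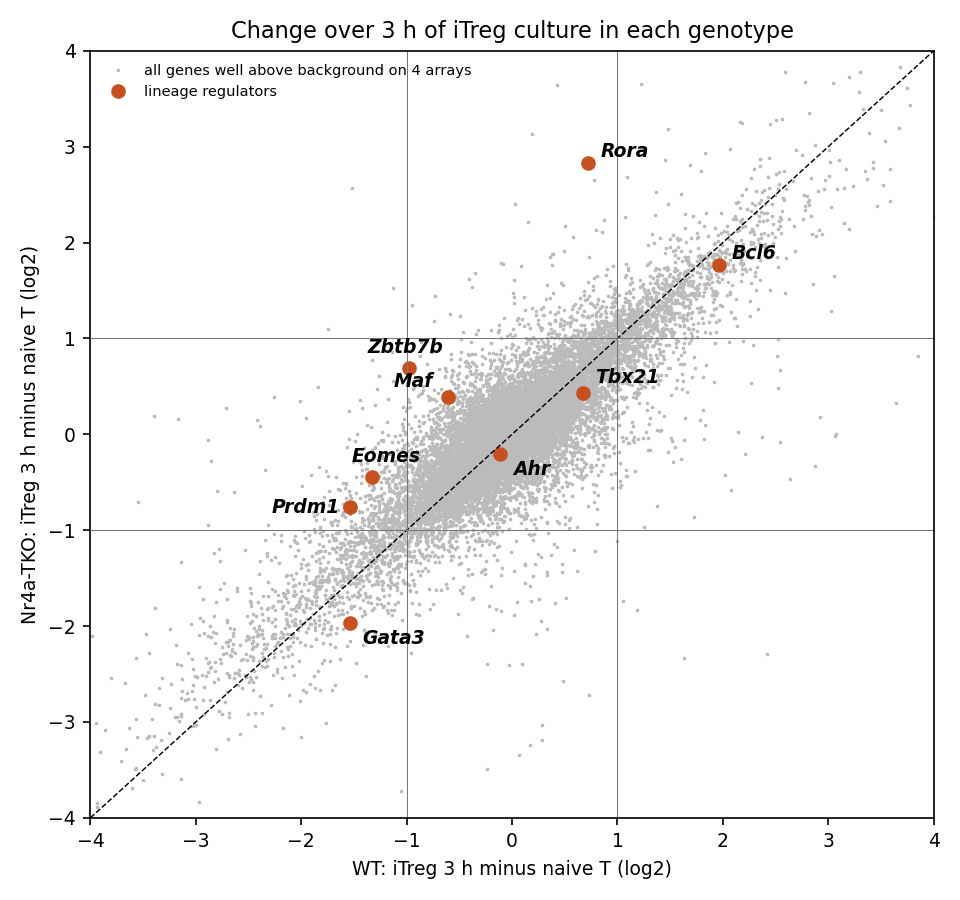
Log2 change from naive T to iTreg 3 h in WT (horizontal axis) and in Nr4a-TKO (vertical axis), with grey points for all genes well above background on 4 arrays and orange points for the 9 regulators. Thin lines mark 2-fold and the dashed line equal change. Bcl6 and Gata3 lie near the dashed line, Rora stands above it at 0.72 and 2.83, and Zbtb7b and Maf lie above it with opposite signs in the genotypes.

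Between the genotypes at 3 h, Rora, Zbtb7b and Maf were past 2-fold higher in Nr4a-TKO and no regulator was past 2-fold lower. That is 3 of 9, where 3.69% of 19834 genes were past 2-fold in either direction and 1.76% were higher. Counted by probe, 5 of 14 were higher, where 1.64% of all probes were: both detected Rora probes, both detected Maf probes and the Zbtb7b probe. These probes read the same 3 genes on the same arrays, so the count by probe adds nothing independent to 3 of 9. The median difference of the 9 was 0.32, against 0.0026 over all genes.

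Rora had the largest difference of the 9. Its brighter probe read 7.02 and 6.91 in WT and Nr4a-TKO naive T, then 7.74 in WT and 9.74 in Nr4a-TKO at 3 h. Its dimmer probe read 5.09, 4.73, 5.41 and 7.11 in the same order. On both probes the array of Nr4a-TKO iTreg 3 h stood alone above the other 3. As the scanner's own processed intensity, before any scaling between arrays, the brighter probe gave 131, 119, 261 and 1082. At 3 h Rora was 4.0-fold higher in Nr4a-TKO by the brighter probe and 3.25-fold by the dimmer, and 0.766% of all genes had a greater difference. Over the culture it was 7.11-fold higher in Nr4a-TKO and 1.65-fold higher in WT. In naive T the genotypes lay 0.11 apart on the brighter probe, within the spread of repeated spots. Under 7 other ways to process the arrays, the difference at 3 h was between 1.78 and 2.13.

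Maf read 7.69 and 8.0 in WT and Nr4a-TKO naive T, and 7.09 and 8.39 in the matching iTreg 3 h arrays. It was lower at 3 h than in naive T in WT, by 0.61, and higher in Nr4a-TKO, by 0.39, which left Nr4a-TKO 2.46-fold above WT at 3 h. Its second probe, at chr8:118207273-118207332, read 4.58, 4.38, 3.75 and 4.89 and was at least 2.20-fold higher in Nr4a-TKO, since the WT array was not well above background there. The last Maf probe was not well above background on any array. A probe named CB193388, which lies between these probes on the same strand at chr8:118225329-118225388 and was chosen after its values were seen, read 4.28, 4.43, 4.08 and 5.12, 1.04 higher in Nr4a-TKO at 3 h. Both detected Maf probes had the same order at 3 h. CB193388 is not counted with them because of how it was chosen, and whether it reads the same RNA was not tested. The Maf difference was between 1.05 and 1.41 under the 7 other ways of processing.

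Zbtb7b, with 1 probe, read 5.46 and 5.30 in WT and Nr4a-TKO naive T, which lay within the spread of repeated spots, then 4.48 in WT iTreg 3 h and 5.99 in Nr4a-TKO iTreg 3 h. The processed intensities were 37.5, 32.1, 14.5 and 61.1, which are low values on these arrays. WT was thus below and Nr4a-TKO above the naive level at 3 h, 2.85-fold apart. The difference was between 0.65 and 2.14 under the other ways of processing and was under 2-fold with the offset of 50. CD8 genes, which ThPOK holds off, were not past 2-fold apart: Cd8a differed by -0.59 and Cd8b1 by -0.32 at 3 h, and Cd4 by -0.48.

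The other 6 regulators were within 2-fold between the genotypes at 3 h. Prdm1 and Tbx21 were 0.40 and 0.32 higher in Nr4a-TKO, and Ahr, Bcl6, Gata3 and Eomes were 0.12, 0.37, 0.43 and 0.47 lower. Markers of other cells moved in this comparison too. Of 8 B cell markers 3 were past 2-fold higher in Nr4a-TKO, beside 1.76% of all genes. They were Cd79a by 1.14, H2-Aa by 1.34 and H2-Ab1 by 1.38, whereas Ms4a1 and Pax5 differed by 0.07 and 0.11. Of 7 memory T cell markers, summed intensity 2162 in WT and 3614 in Nr4a-TKO, only Cd44 was past 2-fold, at 1.56 higher. Their part in the Rora, Maf and Zbtb7b values was not tested.

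**Figure D3:**
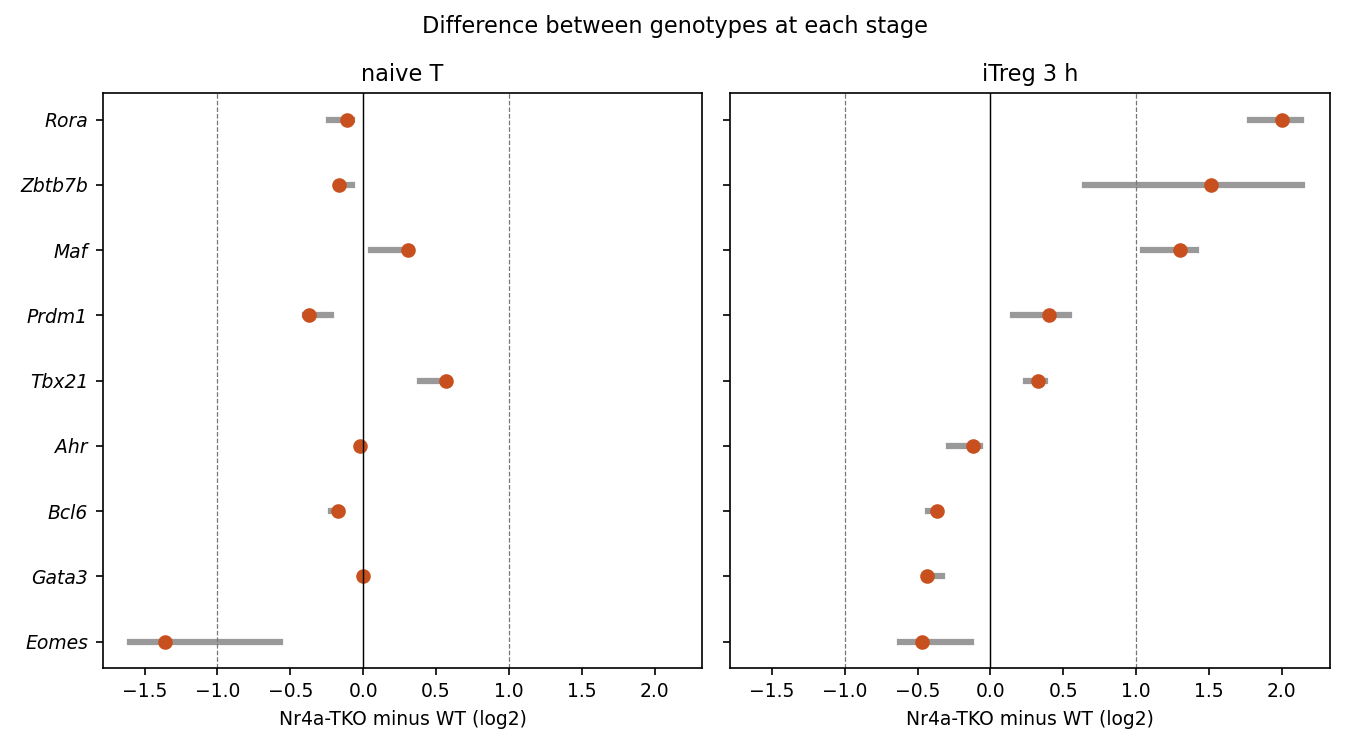
Log2 difference, Nr4a-TKO minus WT, of each regulator in naive T (left) and iTreg 3 h (right), with orange points for the values reported and grey bars for the range over 7 other ways of processing the arrays, which is not a replicate error. Dashed lines mark 2-fold. At 3 h the whole bar of Rora and of Maf lies past 2-fold, while that of Zbtb7b starts at 0.65.

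In naive T, Eomes was the only one of the 9 past 2-fold between the genotypes, and it was lower in Nr4a-TKO. In all, 3.54% of 19506 genes were past 2-fold there, 1.63% being lower and 1.91% higher, and 1 gene of 9 is too few to read against that. Eomes read 5.86 and 4.50 in WT and Nr4a-TKO naive T, and 4.53 and 4.06 in WT and Nr4a-TKO iTreg 3 h. WT naive T stood alone, 2.56-fold above Nr4a-TKO naive T and 2.51-fold above WT iTreg 3 h. The probe on another Eomes transcript, whose bases cross an intron within chr9:118390460-118391121, read 4.33, 3.88, 4.04 and 3.99 and showed a smaller naive difference of -0.45, near the spread of repeated spots at such levels.

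A probe on the opposite strand at the 3′ end of Eomes, TC1643213 at chr9:118394429-118394488, covers nearly the same bases as the Eomes probe and was looked up after the Eomes values were seen. It read 7.21, 5.28, 5.42 and 4.93, so that WT naive T stood alone there too, 1.93 above Nr4a-TKO naive T. Transcripts of both strands of this stretch thus had the same pattern over the arrays, and what the Eomes probe takes from each was not tested. Markers of NK cells, which use Eomes, and of innate lymphoid cells were read as 1 list. Ncr1 was not well above background on any array, and Nkg7 was 0.77 lower in Nr4a-TKO naive T. Klrd1 was well above background in WT naive T alone and 1.25 or more higher there. The summed intensity of the 8 genes in naive T was 925 in WT and 829 in Nr4a-TKO. Of the 7 NK and innate lymphoid markers measured there, 5 were lower in Nr4a-TKO and 2 higher, Klrb1c by at least 0.52 and Gzma by 0.34. Single markers of other cells also stood highest in WT naive T. The myeloid marker Cd14 was 2.70 lower in Nr4a-TKO naive T and at least 2.89 lower in WT iTreg 3 h, and the memory marker S100a4 was 2.17 and 3.14 lower. Summed over the whole lists, WT naive T was the lower of the naive arrays, with summed intensities of 37821 in WT and 39937 in Nr4a-TKO naive T for 6 myeloid markers and of 3441 and 4176 for 7 memory markers. The myeloid sum is mostly that of Itgam, which read 15.07 and 15.14 in WT and Nr4a-TKO naive T, and says little of the rest. Csf1r, Cst3 and Fcer1g were 0.12, 0.16 and 0.15 higher in Nr4a-TKO naive T, and Lyz2 was at least 0.02 lower. The part of such cells in the Eomes values was not tested. With the offset of 50, with no background correction and with the mean of its probes, Eomes was under 2-fold both between the genotypes in naive T and over the culture in WT, where its change was -0.56, -0.83 and -0.81.

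The remaining 8 regulators were within 2-fold in naive T. Tbx21 was 0.57 higher in Nr4a-TKO and Prdm1 was 0.37 lower. Maf was 0.31 higher on the probe that stands for it but 0.20 lower on its second probe. Gata3, Rora, Bcl6, Zbtb7b and Ahr lay at most 0.17 apart. Rora and Zbtb7b, which differed at 3 h, were thus within the spread of repeated spots before culture on the probes that stand for them, while the dimmer Rora probe was 0.36 lower in Nr4a-TKO.

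Set against each other, the changes over the culture differed past 2-fold for 2 of the 9, Rora by 2.11 and Zbtb7b by 1.67, both more positive in Nr4a-TKO, where 3.27% of 16734 genes differed past 2-fold in either direction, 1.72% in this one and 1.55% in the other. Maf, at 0.99, lay just under the threshold and was past it, at 1.08, with 75th percentile scaling and in the deposited values, followed by Eomes at 0.88 and Prdm1 at 0.78. Gata3, Tbx21, Bcl6 and Ahr were between -0.43 and -0.10. These values use the same 4 arrays as the comparisons above and add no independent reading.

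Genes of the programmes that these factors govern were read from lists. Of 13 Th1 genes measured at 3 h, 2 were past 2-fold higher in Nr4a-TKO and 1 lower, beside 1.76% and 1.93% of all genes. The median of the list was 0.24. Cxcr3, a chemokine receptor and target of T-bet, read 4.60 in WT and 5.90 in Nr4a-TKO, a difference of 1.30. Ifng was well above background on the array of Nr4a-TKO iTreg 3 h alone, 1.15 or more above WT, and the homeobox gene Hlx was at least 1.23 lower. Over the culture, 8 of 12 Th1 genes were past 2-fold lower in WT and 1 higher, beside 9.01% and 8.57% of all genes, and 6 of 13 were lower in Nr4a-TKO and 2 higher, beside 8.43% and 8.01%. The higher ones were Hlx in WT, at 1.19 or more, and Cxcr3 and Ifng in Nr4a-TKO, at 1.79 and at 1.21 or more. Il18r1, a subunit of the IL-18 receptor, was 3.19 lower in WT and 2.20 lower in Nr4a-TKO.

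Over the culture, 4 of 11 measured Th2 genes were past 2-fold higher in WT and 4 of 10 in Nr4a-TKO, and none was lower. Of all genes, 8.57% and 8.01% were higher and 9.01% and 8.43% lower. Gata3 itself was lower. The 4 higher genes were the chemokine receptors Ccr4 and Ccr8, the prostaglandin receptor Ptgdr2 and the repressor Gfi1, which was 3.58 higher in WT and 2.76 in Nr4a-TKO. Ccr8 was 3.96 and 4.57 higher. Between the genotypes at 3 h, 1 of 10 was past 2-fold, beside 3.69% of all genes. It was Ecm1, an extracellular matrix gene, 1.28 lower in Nr4a-TKO, and the list's median was -0.19. The cytokine genes Il4 and Il5 were not well above background on any array, while Il13 was on all 4 and differed by 0.10 between the genotypes at 3 h.

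For the Th17 list, in which Rora acts, 1 of 10 genes was past 2-fold at 3 h, beside 3.69% of all genes. That gene, Il6st, the signalling subunit of the IL-6 receptor, was 1.11 lower in Nr4a-TKO. Il17f differed by -0.35, while Il23r was not well above background on any array. The median of the list was 0.11.

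In the Tfh list, 3 of 11 genes were past 2-fold higher in Nr4a-TKO at 3 h, beside 1.76% of all genes. The same 3 were so in naive T, beside 1.91%, with none lower at either stage. These were Il21, the Tfh cytokine and a target of c-Maf, at 1.47 and at least 1.90, Pdcd1, the inhibitory receptor PD-1, at 1.30 and at least 1.52, and the surface protein Cd200 at 1.51 and 1.72. Bcl6 itself was not higher in Nr4a-TKO at either stage. The medians of this list were -0.15 at 3 h and 0.21 in naive T, beside 0.0026 and -0.015 over all genes.

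Of 10 Treg genes, Foxp3, which defines Treg cells, was 1.36 lower in Nr4a-TKO at 3 h and 1.31 lower in naive T, where the part of the knock-in at this gene was not tested, and it changed by 0.11 and 0.07 over the culture, from cells sorted as Foxp3-. Nrp1 was 1.05 higher at 3 h. In naive T, Ikzf2, which encodes Helios, was 1.37 lower in Nr4a-TKO, but it lay 0.16 apart at 3 h. The lists of CD4 and CD8 lineage genes, of cofactors of the members and of their paralogues had no gene past 2-fold between the genotypes at 3 h. They held 10, 10 and 12 measured genes, and 3.69% of all genes were past 2-fold. Among the paralogues, the small Maf genes Mafg and Mafk were higher over the culture in both genotypes, by 2.84 and 1.62 in WT and by 2.68 and 1.22 in Nr4a-TKO, while Maf was within 2-fold in each.

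**Figure D4:**
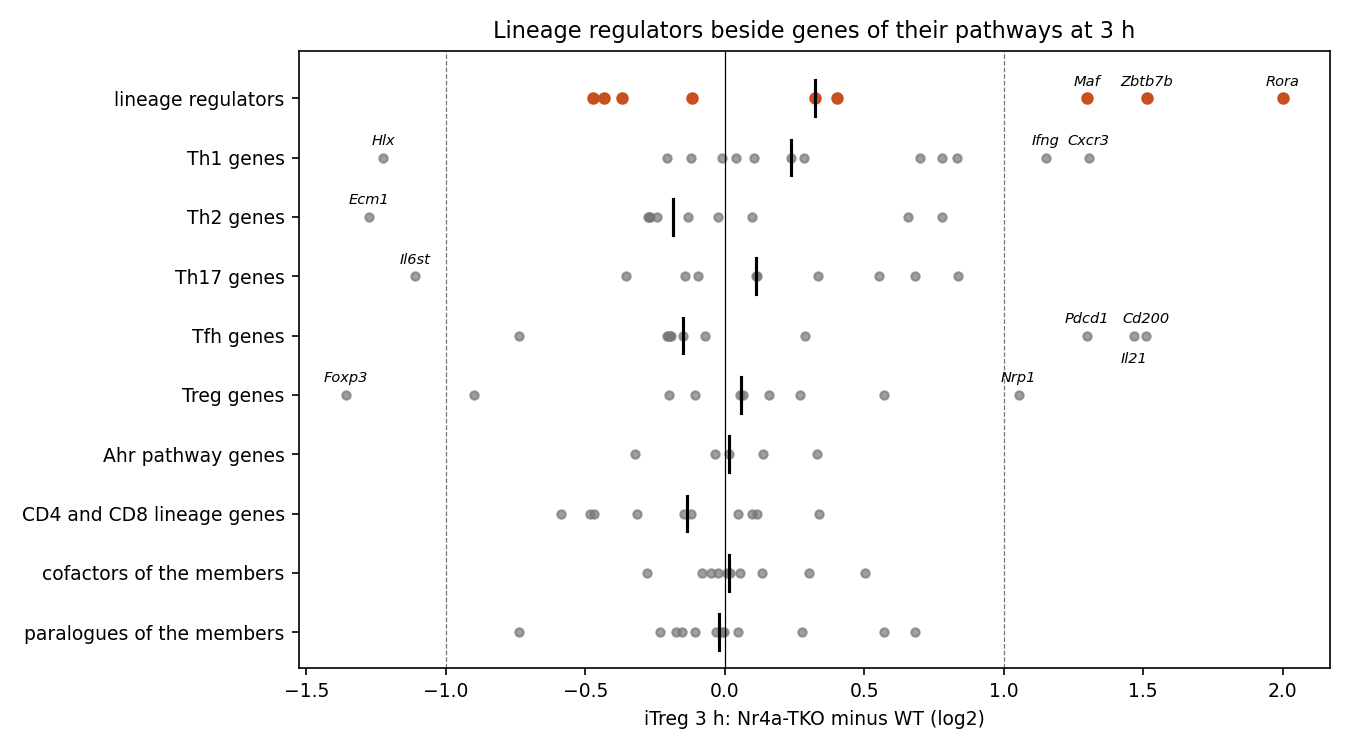
Log2 difference at iTreg 3 h, Nr4a-TKO minus WT (horizontal axis), of the 9 regulators (orange) and of the measured genes of each list (grey), with a black bar at each median and dashed lines at 2-fold. Names mark the genes past 2-fold, among which Rora stands farthest to the right at 2.00. Ifng and Hlx are drawn at their bounds.

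Patterns over the 4 arrays were also compared with those of 15636 genes well above background on all of them, by the Euclidean distance between the log2 levels after each gene's mean was removed. For 7 regulators whose level spanned over 1 the nearest genes were found, and with 4 arrays this likeness is a description only. Nearest to Bcl6 were Larp4 at 0.070 and Rrp12 at 0.10. Near Gata3 were Wfdc13 at 0.099 and AI413582 at 0.12, and Prdm1 had Zfp947 at 0.041 and Ulk2 at 0.043. Maf had Hes5 at 0.15 and Zfp69 at 0.21, Zbtb7b had Mfhas1 at 0.17 and Napsa at 0.23, and Rora had Casc1 at 0.44 and Cd44 at 0.50. Nearest to Eomes were Clec2e at 0.23 and Dazl at 0.28. The nearest gene to Rora was thus the most distant of the 7. This distance is not scaled to the span of a gene, and the Rora span, 2.83, was the largest of the 7. It therefore does not mark the Rora pattern as unusual. Cd44, the adhesion receptor of activated T cells, was 0.80 higher over the culture in WT and 2.13 higher in Nr4a-TKO.

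Some transcripts next to the regulators moved with them and others did not. Of the probes within 50 kb of Rora, Ice2 was 0.59 higher in Nr4a-TKO at 3 h on its brighter probe and at least 0.77 lower on its other probe, which was well above background on 1 array. Near Zbtb7b, Lenep was 0.96 higher, while Cks1b, Flad1, Adam15, Dcst1 and Shc1 differed by at most 0.51 at 3 h on any detected probe. Past the 3′ end of Eomes, Gm33460 was at least 1.04 lower in Nr4a-TKO in naive T and at least 1.13 lower at 3 h. A probe with no gene name beside Bcl6, on the minus strand at chr16:23994655-23994714, was at least 1.20 higher over the culture in WT and at least 0.86 in Nr4a-TKO. Beside Gata3, the noncoding 9230102O04Rik was 1.22 lower in Nr4a-TKO naive T, where Gata3 was equal.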

How the data were processed

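The 9 genes, the lists and the rule for naming genes were chosen with earlier results of these data known. For each array the authors deposited the output of Agilent Feature Extraction 11.5.1.1 (per the submitters' processing notes), with mean, background and processed intensity per spot on mm9 coordinates, and a table of values in log2 units. The study's methods name RMA in GeneSpring. The deposited log2 values were found to be log2 processed intensities less a constant for the array, its 75th percentile (SD around the constant at most 0.00289), with column medians between -2.33 and -2.16, so scale, centring and direction are settled. Arrays of later times were not analysed here.

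Intensities were corrected with normexp (offset 0), quantile-normalized over 4 arrays, put on the log2 scale and averaged over the spots of a probe, with limma 3.58.1 in R 4.3.3 (the data.table package, version 1.17.8, read the files). Control and outlier spots (115 to 160 per array) were left out. Median foreground was 44.8 to 45.4 and median background 20 to 21, and the number of arrays limits the precision. Of 56605 probes, 41700 had a current symbol, 1518 were named by transcript, 520 by synonym and 2574 as in the files, and 10293 have no name. A dim probe, one not well above background, took the higher of its own value and the array's floor, the lowest level among detected probes (3.07 to 3.45), and such a difference is a bound; pairs with both values dim were left out. Later steps used Python 3.11.15, pandas 2.3.3, numpy 2.4.6 and matplotlib 3.10.9. Counting was tested on simulated data, made for the genotype comparison at 3 h (32959 probes), where 94.0% of 200 probes changed 2.5-fold and 100% of 200 changed 4-fold were past 2-fold, with 0 unchanged ones. The simulated noise had an SD of 0.13 at every level, below the 0.24 to 0.29 of repeated spots at levels under 5. It held no variation between mice or cultures. The 0 thus follows from this setting and does not speak of false calls among dim probes or between mice.

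Named are the 9 genes with every probe, the list genes past 2-fold that also were so with 75th percentile scaling (at most 4 per list), the first gene of each list, markers of other cells, and the 2 genes most like each member. Exceptions chosen after values were seen, beside those marked in the text, are neighbouring genes, list genes named for their role (Il5, Il13, Cyp1a1, Cd8a, Cd8b1, Il17f, Il23r) and targeted genes. Some genes that the rule names, and a marker of the sort, are not reported here.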

Additional observations from a re-analysis of the deposited data

Results flagged for a closer look

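Maf and Zbtb7b moved in opposite directions over the culture in the 2 genotypes, and this difference between the genotypes was not tested, as each condition has 1 array. The change of Maf was -0.61 in WT and 0.39 in Nr4a-TKO, 0.99 apart on the log2 scale. That of Zbtb7b was -0.98 in WT and 0.69 in Nr4a-TKO, 1.67 apart. No group has the 4 samples needed to look for a sample far from the others.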

How the results depend on the processing

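The 7 other ways of processing were the deposited values, scaling to the 75th percentile, uncorrected intensities, an offset of 50 in normexp, no filter on dim probes, a stricter one, and the mean over all probes of a gene, and thresholds of 1.5-fold and 3-fold were tried beside them. No difference of a member gene that was called changed sign. Of the 315 values, 255 moved by less than 0.19, the highest SD of a log2 difference over all levels of an array, and 60 by more. That bound is smaller than the spread at levels under 5. The settings for dim probes could move no value, since the probe that stands for each gene was well above background on all 4 arrays. The mean over all probes could not move genes with 1 probe, and the deposited values repeat the 75th percentile scaling. Counts of the 9 genes past the threshold changed as follows. With the offset of 50, the count went from 4 to 2 for the WT change (Gata3 and Bcl6 left), from 2 to 1 for the difference between the changes (Rora left), from 3 to 2 between the genotypes at 3 h (Rora and Maf left) and from 1 to 0 in naive T. With 75th percentile scaling, it rose from 4 to 5 for the WT change (Zbtb7b added), from 3 to 4 for the Nr4a-TKO change (Prdm1 added) and from 2 to 3 for the difference between the changes (Maf added), and the deposited values gave 5, 3 and 3. Without background correction and with the mean over all probes, it was 3 for the WT change (Eomes lost). In naive T it was also 0 without background correction, with the mean over all probes and at 3-fold. At 1.5-fold, the counts were 8 for the WT change, 5 for the Nr4a-TKO change and 5 for the difference between the changes, and at 3-fold they were 1 for the WT change (Bcl6) and 1 at 3 h between the genotypes (Rora). Members at low intensity (Zbtb7b, Eomes, Prdm1) moved most, and the cause was not tested. No paired analysis was possible because each group is 1 array.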
